A study of Mus musculus with 28 samples.

Results

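Immediate early genes are switched on within minutes of a signal from preformed proteins, with no need for new protein synthesis, and their transcripts are short-lived. Serum, growth factors, and the handling of tissue (enzymatic dissociation, shear and cell sorting) are known to induce them, so they are often read as a sign of stress during cell preparation. 10 of them were examined here, of 19421 genes in the deposited table: Fos, Fosb, Jun, Junb, Egr1, Atf3, Ier2, Btg2, Dusp1 and Zfp36. They were chosen by name. All 10 passed a filter of 10 or more normalized counts in 2 or more libraries, as did 16837 genes in all. Fos, Fosb, Jun and Junb encode subunits of the AP-1 transcription factor. Atf3 is a stress-induced transcription factor of the ATF/CREB family that pairs with Jun proteins, and Egr1 is a zinc finger transcription factor downstream of MAP kinases. Ier2 is a nuclear protein of the early serum response. Btg2 is an antiproliferative cofactor induced by p53 and by growth signals. Dusp1 is the phosphatase that switches MAP kinases off, and Zfp36 (tristetraprolin) destabilizes mRNAs with AU-rich elements, those of immediate early genes among them.

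The libraries came from 7 mouse embryonic stem cell (mESC) lines made from the A2loxCre parental line, which carry Venus together with Atoh1 (iAtoh1), Gfi1 (iGfi1), Pou4f3 (iPou4f3), Gfi1 and Atoh1 (iG+A), Gfi1 and Pou4f3 (iG+P), Pou4f3 and Atoh1 (iP+A) or all 3 factors (iGPA) under doxycycline (Dox) control. Embryoid bodies (EBs), aggregates in which mESCs differentiate in serum without LIF, either stayed untreated to day 6 or received 2 µg/ml Dox at day 4 for 48 h, after which Venus+ cells were sorted on a FACS Aria. The untreated libraries are from EBs that carry the same cassettes and were not sorted. Whether they were dissociated before RNA extraction is not given for these libraries in the sources used here, and the study describes dissociating EBs of the same age for RNA used in quantitative PCR. Thus within a line the effect of the factors, of Dox itself and of dissociation and sorting cannot be told apart. Each of the 14 groups has 2 replicates, described as different clones of the line, and 28 libraries were analysed. The time between sorting and lysis is not given in the sources used here.

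The depth, as estimated from the files, lay between 30.3 and 43.9 M reads in Dox libraries (median 38.7 M) and between 33.3 and 48.0 M in untreated ones (39.15 M). As a check of the labels, each transgene stood far higher in the 8 Dox libraries of the lines that carry it than in the other 20 libraries. Gfi1 had 8119 to 12490 normalized counts against at most 119. For Atoh1 these levels were 12820 to 21240 against at most 120.1, and for Pou4f3 4694 to 19880 against at most 101.1. The EBs expressed markers of several lineages: untreated, 10 pluripotency markers summed to 11170 to 44700 normalized counts, 10 primitive endoderm markers to 15470 to 26860 and 14 neuronal markers to 1418 to 2341, and with Dox to 10520 to 27200, 5551 to 18610 and 1147 to 30680. The lowest value of any of the 10 genes was 157.82 normalized counts, Atf3 in iG+P Dox replicate 1. Replicates of iG+P stood apart, since its replicate 1 was the lowest of all libraries in the mean of the 10 genes both with and without Dox.

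The RefSeq promoter table (GRCm38.p6, a later build than that of the files) matched 8 of the 10 genes, all but Egr1 and Ier2. The 250 bases before the start were searched on both strands for the cAMP response element TGACGTCA, which ATF/CREB factors bind, the AP-1 site TGANTCA, the CArG box, which serum response factor binds, and the TATA box TATAAA. The cAMP response element was found in Btg2, 166 to 159 bases before the start, and in Dusp1, 143 to 136 bases before it, and in 1.55% of 32851 windows of this length. A CArG box was found in Zfp36, 58 to 49 bases before the start (1.47% of windows), and TATAAA in Fos, 33 to 28 bases before it (12.4%). None of the 8 windows held the AP-1 site (6.75% of all). No match overlapped another. A match of letters is a description and not a bound site. Only exact matches were sought, so near matches and sites outside the 250 bases were not counted. The windows shown belong to Fos and Atf3, the genes that fell past the threshold in iG+A cells, to Btg2 and Dusp1, whose mean Dox effect was above 0, and to Zfp36, whose Dox effect differed with Gfi1. Capitals mark the matches, and the Atf3 window has none.
Fos, chr12:85473640-85473889, plus strand: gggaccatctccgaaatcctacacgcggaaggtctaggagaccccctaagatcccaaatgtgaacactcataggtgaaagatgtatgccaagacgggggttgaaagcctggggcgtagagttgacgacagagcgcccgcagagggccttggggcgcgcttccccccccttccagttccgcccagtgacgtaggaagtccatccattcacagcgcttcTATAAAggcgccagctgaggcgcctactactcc
Atf3, chr1:191183334-191183583, minus strand: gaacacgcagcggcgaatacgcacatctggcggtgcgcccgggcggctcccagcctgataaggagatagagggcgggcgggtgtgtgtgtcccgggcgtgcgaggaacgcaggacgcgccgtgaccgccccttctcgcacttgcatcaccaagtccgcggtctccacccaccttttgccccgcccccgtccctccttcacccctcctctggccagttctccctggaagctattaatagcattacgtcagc
Btg2, chr1:134079156-134079405, minus strand: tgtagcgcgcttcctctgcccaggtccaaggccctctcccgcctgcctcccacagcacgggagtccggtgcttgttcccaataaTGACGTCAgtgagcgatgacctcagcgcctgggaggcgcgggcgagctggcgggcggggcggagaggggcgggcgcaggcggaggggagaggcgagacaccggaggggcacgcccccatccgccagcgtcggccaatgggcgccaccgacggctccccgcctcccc
Dusp1, chr17:26508473-26508722, minus strand: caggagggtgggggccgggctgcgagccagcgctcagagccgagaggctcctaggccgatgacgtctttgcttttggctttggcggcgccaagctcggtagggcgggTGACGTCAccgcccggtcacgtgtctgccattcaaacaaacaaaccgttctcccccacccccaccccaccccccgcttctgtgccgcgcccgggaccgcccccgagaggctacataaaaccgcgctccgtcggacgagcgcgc
Zfp36, chr7:28379229-28379478, minus strand: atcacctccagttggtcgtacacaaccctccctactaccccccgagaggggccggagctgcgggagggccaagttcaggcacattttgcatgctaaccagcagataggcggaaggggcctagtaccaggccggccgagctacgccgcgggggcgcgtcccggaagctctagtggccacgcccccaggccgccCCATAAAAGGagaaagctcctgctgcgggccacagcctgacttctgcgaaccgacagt

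In NCBIM37 (mm9) Fos (Entrez 14281) lies on the plus strand of chromosome 12 from 86814840 to 86818223, and Fosb (14282) on the minus strand of chromosome 7 from 19888070 to 19895394. Jun (16476) lies on the minus strand of chromosome 4 from 94715725 to 94718913, and Junb (16477) on the minus strand of chromosome 8 from 87500811 to 87502617. Ier2 (15936) is found on the same strand and chromosome as Junb, from 87185230 to 87186751. Egr1 (13653) lies on the plus strand of chromosome 18 from 35020861 to 35024638. Atf3 (11910) and Btg2 (12227) are on the minus strand of chromosome 1, from 192994175 to 193007219 and from 135971747 to 135975697. Dusp1 (19252) lies on the minus strand of chromosome 17 from 26642535 to 26645464, and Zfp36 (22695) on that of chromosome 7 from 29161803 to 29164274. These are whole gene spans, and the deposited values sum a gene's transcripts.

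The median levels of the 10 genes in untreated, unsorted EBs lay in the upper part of all genes, that of Atf3 lowest. Per kilobase of their longest transcript, the median untreated level of Fos, 9354.1 normalized counts per kb, ranked at percentile 99 of 16417 genes with a known length. On the same per-kilobase scale the medians of Egr1, Fosb, Jun and Ier2 were at percentiles 98.7, 98.5, 97.6 and 95.3, that of Junb at 91.8, those of Dusp1, Zfp36 and Btg2 at 86.2, 84.8 and 84.6, and that of Atf3 at 78.2. In sorted Dox cells the medians were at percentiles 98.6 for Fos, 97.7 for Egr1, 98.0 for Fosb, 97.6 for Jun, 80.0 for Zfp36 and 59.3 for Atf3. Those of Junb, Ier2, Btg2 and Dusp1 were at 94.1, 96.5, 90.4 and 90.6. Atf3 ranged most widely, from percentile 44.1 to 92.6 over the untreated and 40.7 to 94.2 over the Dox libraries.

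The ranges of treated and untreated libraries overlapped for each of the 10 genes. Over the 14 untreated libraries Fos had 6622.1 normalized counts at the lowest, 19718 at the median and 32186 at the highest. Over the 14 Dox libraries these values were 3461, 16011 and 25682. The mean log2 value of the 10 genes ran from 11.01 to 13.32 without Dox (median 12.69) and from 11.07 to 13.53 with it (12.55). Both ends of the order were shared: iG+P replicate 1 untreated and iG+P replicate 1 with Dox were the lowest libraries, and iGfi1 Dox replicate 2 and iPou4f3 untreated replicate 1 the highest.

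**Figure D1:**
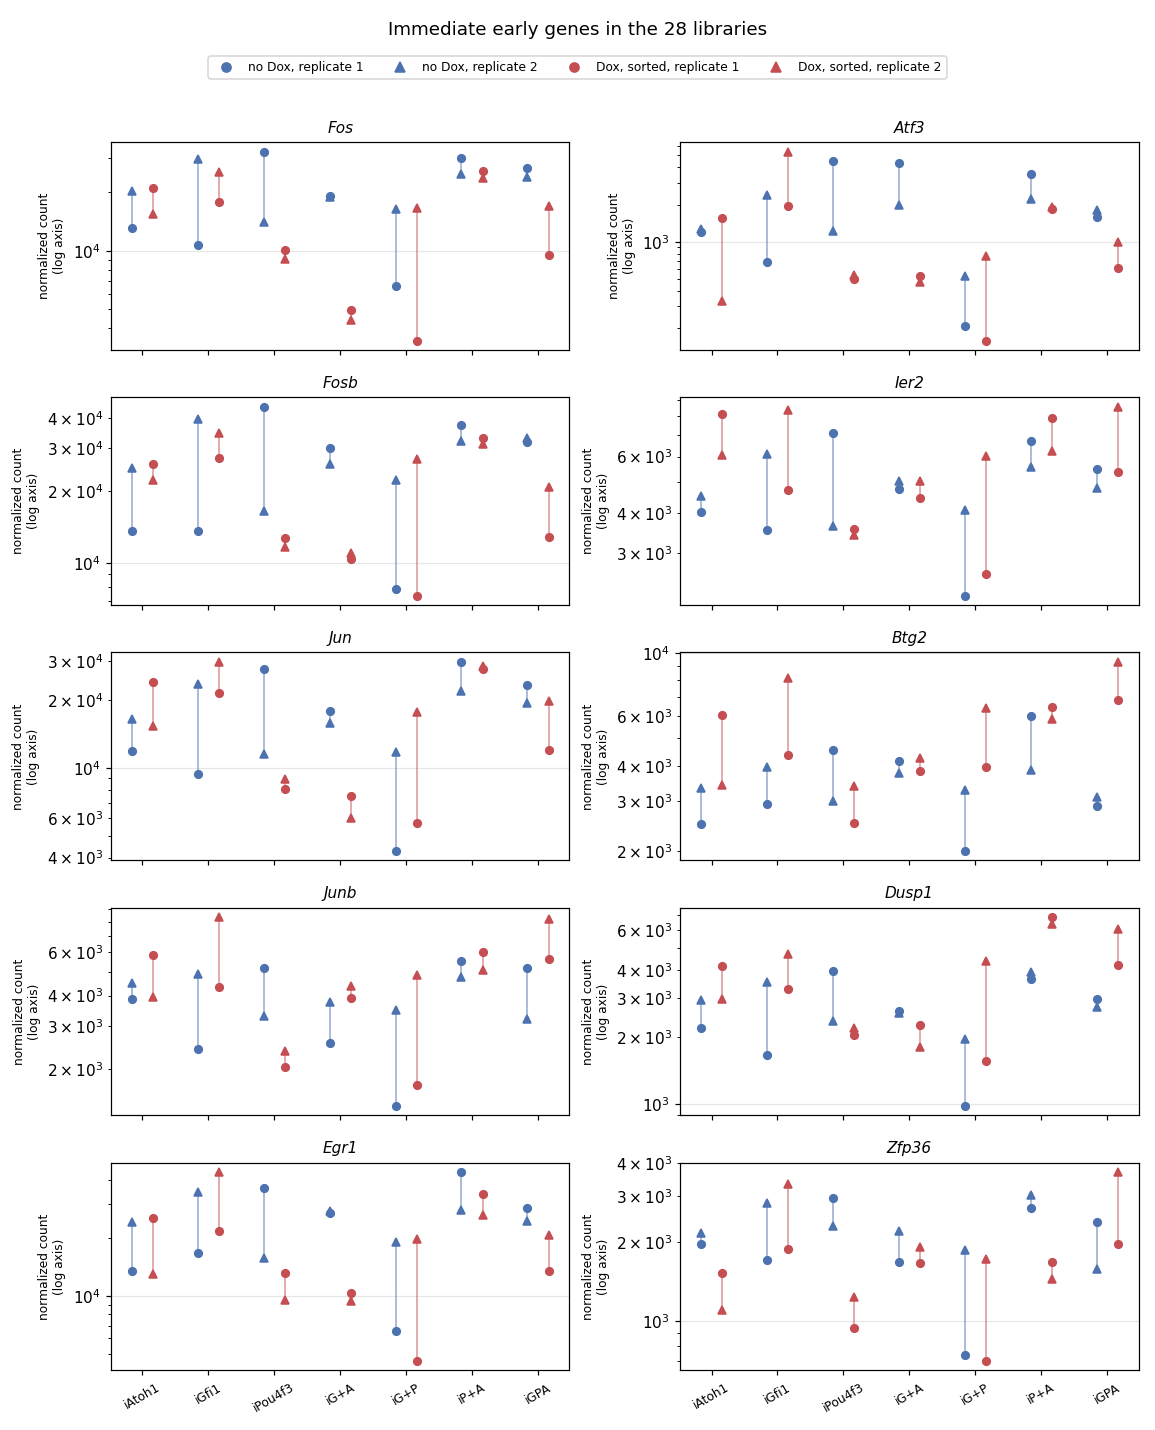
Normalized counts (log axis) of the 10 immediate early genes in each of the 28 libraries, by line. Blue marks untreated EBs and red sorted Dox cells, circles are replicate 1 and triangles replicate 2, and a line joins the replicates of a group. In iG+A the Fos values of the treatments lie well apart, with 19165 and 18845 untreated against 4987.7 and 4429.6 with Dox, while in iG+P the values of the treatments overlap for most genes.

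The question of each Dox contrast was how far the sorted Dox cells of a line differ from its own unsorted, untreated EBs. A gene was called past the threshold at a limma adjusted p under 0.05 with a change of at least 1.5 in either direction on the scale of log2(normalized count + 1). Over 70 combinations of gene and line, 37 differences were above 0 and 33 below. None was past the threshold upward, and 2 were downward, Fos and Atf3 in iG+A cells. By unadjusted p (under 0.05) limma called 4 upward and 7 downward (19.8% and 19.2% of the combinations over all genes tested), and by adjusted p with no minimum change 2 upward (Btg2, in the iG+P and iGPA lines) and the same 2 downward (14.7% and 13.9%). As background, 8.65% of all genes tested were past the threshold upward in iGPA, 7.35% in iG+A, 4.7% in iP+A, 5.16% in iG+P, 2.89% in iAtoh1, 2.15% in iGfi1 and 1.47% in iPou4f3. Downward, these shares were 5.31%, 4.95%, 2.58%, 5.36%, 2.52%, 2.67% and 0.606%. When replicate numbers entered the fit as a block within each line, 0 were past the threshold upward and 3 downward (4.74% and 3.71% of the combinations over all genes), and 10 upward and 10 downward had an adjusted p under 0.05 with no minimum change (17.3% and 16.9%).

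In iG+A cells Fos and Atf3 fell with Dox, the sole genes of the 10 with an adjusted p under 0.05 in this line (19.7% of all genes were lower by that measure and 21.6% higher). Fos had 19165 and 18845 normalized counts untreated and 4987.7 and 4429.6 with Dox, and fell by 2.02 on the log2 scale (standard error 0.579, limma adjusted p = 0.00959, 0.000468 to 0.0483 over the alternatives). The replicates differed by at most 1.126-fold, and the treatments did not overlap. Atf3 had 4375.3 and 1992.8 untreated and 524.21 and 474.03 with Dox, and fell by 2.56 (standard error 0.801, limma adjusted p = 0.0158, 0.0017 to 0.135 over the alternatives). The Atf3 call was lost without untreated replicate 1, where its change was −1.997, and without Dox replicate 1 (−2.64) or 2 (−2.49). Egr1 (26939 and 27678 against 10379 and 9353.2), Fosb (29960 and 25763 against 10421 and 11060) and Jun (17894 and 15832 against 7551.5 and 6027) did not overlap between treatments either, with log2 changes of −1.47, −1.37 and −1.32 and limma adjusted p of 0.0607, 0.0625 and 0.0518. These are among 5 genes with an unadjusted p under 0.05 (49.2% of all genes). With the replicate block their adjusted p became 0.00352, 0.00523 and 0.00753, still short of a change of 1.5 (5 of the 10 genes against 23% of all genes, and past the threshold downward 2 against 5.21%). Junb was at 2568 and 3749 untreated and 3915.7 and 4394.6 with Dox, a difference of 0.42 with a 95% interval of −0.568 to 1.41, and was higher in both Dox libraries (32.6% of all genes were). Btg2 (0.03, −0.68 to 0.734), Ier2 (−0.04, −0.86 to 0.77) and Zfp36 (−0.11, −1.01 to 0.8) had intervals on both sides of 0. With Dusp1 (2628.9 and 2560.6 against 2275.9 and 1806.1), 6 of the 10 genes were lower in both Dox libraries than in both untreated libraries, as were 32.1% of all genes.

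Markers of other cell types moved in the same contrast. The summed level of 14 blood markers in iG+A was 531500 and 411600 normalized counts untreated and 53780 and 64210 with Dox, and 7 of the 14 fell past the threshold (median log2 change −2.02). The sum of 13 fibroblast and mesenchyme markers went from 193200 and 147400 to 53120 and 23380, with 6 past the threshold downward (median −1.53). The sum of 10 endothelial markers was 23910 and 24080 untreated and 34950 and 40090 with Dox, with 1 past the threshold upward. These markers were split, with 6 above 0 and 4 below. By limma adjusted p with no minimum change 4 were higher and 1, Pecam1, was lower (−1.31). Over all 28 libraries the blood sum ran from 76170 to 531500 without and 15490 to 403300 with Dox, the fibroblast and mesenchyme sum from 68740 to 209700 and 12330 to 155600, and the endothelial sum from 15820 to 24760 and 7817 to 40090. Ptprc and Cd33 were the blood markers at 0 in at least 1 library, and no fibroblast or endothelial marker was. In bulk RNA, fewer cells of a type and less RNA per cell cannot be told apart, and the part of these cells in the levels of Fos and Atf3 was not tested.

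The iPou4f3 line had all 10 genes below 0, and 9 of them, all but Btg2, were lower in both Dox libraries than in both untreated libraries (26.3% of all genes). None was past the threshold by limma, with 2 at an unadjusted p under 0.05 (4.72% of all genes by adjusted and 18.2% by unadjusted p). Atf3 had 4516.9 and 1213.6 untreated and 495.09 and 541.5 with Dox, a difference of −2.17 with a standard error of 0.801 (limma adjusted p = 0.141), which passed the threshold with the replicate block (adjusted p = 0.0268, as did 0.826% of all genes downward). Without untreated replicate 1 its change was −1.23 and its adjusted p 0.63, the highest over the alternatives. Zfp36 had 2936.6 and 2307.3 untreated and 934.84 and 1233.2 with Dox (−1.28, limma adjusted p = 0.105). With the block its adjusted p was 0.0181 (2.68% of all genes were lower by that measure). Fos (−1.15), Fosb (−1.15), Egr1 (−1.10), Jun (−1.07) and Junb (−0.91) shared a gap between the untreated replicates: all 10 genes were higher in untreated replicate 1 than in replicate 2, by a median of 2.11-fold, while with Dox 6 genes were higher in replicate 2 and 4 in replicate 1. Fos, for instance, was at 32186 and 14072 untreated and at 10140 and 9036.3 with Dox. Without untreated replicate 1 these 5 changes were −0.56, −0.43, −0.48, −0.44 and −0.58, and the median of the 10 genes was −0.46 in place of −1.09. Blood markers here summed to 525700 and 409700 untreated and 288600 and 274300 with Dox, and fibroblast and mesenchyme markers to 209700 and 136400 against 155600 and 83720. Neuronal markers summed to 1735 and 1636 untreated and 4407 and 4062 with Dox, with 3 of 14 past the threshold upward. The part of these cells in the values above was not tested.

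In iGPA cells genes of the group lay on both sides of 0. Fos (26531 and 23835 untreated, 9496.8 and 17018 with Dox), Fosb (31705 and 33148 against 12881 and 20777), Egr1 and Atf3 were lower in both Dox libraries, with log2 changes of −0.98, −0.99, −0.67 and −1.12, and none had a limma adjusted p under 0.05. Without Dox replicate 1 the changes of Fos, Fosb and Egr1 were −0.56, −0.64 and −0.35. Btg2, Dusp1 and Junb were higher in both. Btg2 had 2875.3 and 3099.1 untreated and 6820.9 and 9299.4 with Dox, a difference of 1.42 (95% interval 0.709 to 2.12, limma adjusted p = 0.00213), under the minimum change of 1.5. No other gene of the 10 had an adjusted or an unadjusted p under 0.05, where 23.7% of all genes were higher and 22.3% lower by adjusted p and 52.3% differed by unadjusted p. Btg2 passed that minimum without Dox replicate 1, at 1.64, and its adjusted p reached 0.0314 at most over the alternatives. Dusp1 (2949.1 and 2712.4 against 4199.3 and 6073.4) had 0.84 and Junb (5184.4 and 3201.6 against 5616.9 and 8232) 0.74, with limma adjusted p of 0.106 and 0.213, and Junb was at 0.39 without untreated replicate 2. With the replicate block Btg2, Dusp1 and Junb were higher and Fos and Fosb lower at adjusted p of 0.000959, 0.0134, 0.0341, 0.0272 and 0.026 (26.2% of all genes higher and 25.1% lower). Of all genes, 37.7% were higher and 36.4% lower in both Dox libraries of this line, against 3 and 4 of the 10. Blood markers summed to 282000 and 467700 untreated and 34200 and 60140 with Dox, and fibroblast and mesenchyme markers to 109300 and 156500 against 12330 and 16020. Neuronal markers summed to 1475 and 1418 untreated and 9017 and 9088 with Dox, with 11 of 14 past the threshold upward, and the part of these cells in the values above was not tested.

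In iG+P cells Btg2 had 2007.2 and 3288.3 normalized counts untreated and 3953.9 and 6393.5 with Dox (0.97, standard error 0.337, limma adjusted p = 0.0328, 0.0133 to 0.302 over the alternatives), and the highest adjusted p was found without untreated replicate 1, where the change was 0.61. It was 0.62 without Dox replicate 2. By adjusted p 16.9% of all genes were higher. Btg2 was the only gene of the 10 whose treatments did not overlap in this line (34.2% of all genes were higher in both Dox libraries). Dusp1 (984.33 and 1967.5 against 1567.6 and 4362.9, 0.91) was the further gene with an unadjusted p under 0.05 (42.5% of all genes) and, with the replicate block, an adjusted p of 0.0113 beside 0.0133 for Btg2 (19.5% of all genes were higher). For the others the values of the treatments overlapped. Fos was at 6622.1 and 16462 untreated and 3461 and 16509 with Dox, Egr1 at 6543.1 and 19067 and at 4578.7 and 19833, and Jun at 4290.5 and 11742 and at 5709.3 and 17665. Leaving out a Dox library took a gene past the threshold here: Fos at −1.59 without Dox replicate 2, and Dusp1 at 1.65 without Dox replicate 1. Without Dox replicate 2 Dusp1 was at 0.17. Within each treatment all 10 genes were higher in replicate 2. Blood markers summed to 76170 and 150800 untreated and 49550 and 108600 with Dox, and fibroblast and mesenchyme markers to 78920 and 99130 against 13030 and 16330, and their part was not tested.

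The iGfi1, iAtoh1 and iP+A lines had no gene of the 10 at a limma adjusted p under 0.05 (26.5%, 23.1% and 24.9% of all genes). All 10 were above 0 in iGfi1 (median 0.56, against 0.02 over all genes tested). Leaving out 1 of its libraries gave medians from 0.0655 (without untreated replicate 1) to 1.10 (without untreated replicate 2). In iGfi1 Btg2 alone had an unadjusted p under 0.05 (38.2% of all genes) and did not overlap between treatments (34.6% of all genes were higher in both Dox libraries). Its values were 2943.4 and 3961.9 untreated, 4367.9 and 8150.8 with Dox (0.80, limma adjusted p = 0.0862), and the difference was 0.35 without Dox replicate 2. Atf3 had 684.45 and 2384.7 untreated and 1955.9 and 5354.9 with Dox there, a difference of 1.34 with an interval of −0.342 to 3.02, and 0.44 to 2.24 with 1 library of the line left out (the lowest without untreated replicate 1 and the highest without untreated replicate 2). Blood markers in iGfi1 summed to 277700 and 191600 untreated and 403300 and 221900 with Dox, with 7 of 14 higher by adjusted p (median log2 change 0.97), and fibroblast and mesenchyme markers to 170600 and 143200 against 45960 and 60990. In iAtoh1 cells 8 of the 10 were above 0 (median 0.30, and 0.0267 without untreated replicate 1), and Ier2 (4040.7 and 4533.3 against 8131.5 and 6072), Btg2 and Dusp1 were higher in both Dox libraries, as were 29.4% of all genes, and Zfp36 (1963.7 and 2175.6 against 1519.2 and 1099.8) was lower in both, as were 30.6%. By unadjusted p limma called 0 of the 10 in iAtoh1 and in iP+A (35.6% and 36.6% of all genes). In iAtoh1 cells Atf3 was at 1548.9 in Dox replicate 1 and 332.04 in replicate 2, around untreated values of 1204.7 and 1272.3. Blood markers in iAtoh1 summed to 218100 and 196400 untreated and 22450 and 18740 with Dox, and in iP+A to 112200 and 129800 against 15490 and 35090. Fibroblast and mesenchyme markers summed to 68740 and 113500 against 38080 and 53510 in iAtoh1, and to 188300 and 119100 against 76460 and 61810 in iP+A. Neuronal markers in iP+A summed to 1655 and 2341 untreated and 30680 and 24270 with Dox, with 13 of 14 past the threshold upward. The part of these cells in the values of the 3 lines was not tested. In iP+A cells the median was 0.00: Dusp1 was higher in both Dox libraries (3644.7 and 3925.5 against 6895.8 and 6435.7, 0.82, limma adjusted p = 0.16; 31.1% of all genes) and Zfp36 and Atf3 lower (34% of all genes). Zfp36 had 2699.8 and 3039.4 untreated and 1677.4 and 1444.7 with Dox (−0.88, limma adjusted p = 0.149). With the block, Ier2 in iAtoh1 (adjusted p = 0.0259), Junb, Btg2 and Dusp1 in iGfi1 (0.034, 0.0381 and 0.0475) and Dusp1 and Zfp36 in iP+A (0.0245 and 0.0305) had adjusted p under 0.05, each with a change under 1.5. Of all genes, 14.5% in iAtoh1 and 16.1% in iGfi1 were higher by that measure, and in iP+A 16.1% were higher and 15.3% lower.

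**Figure D2:**
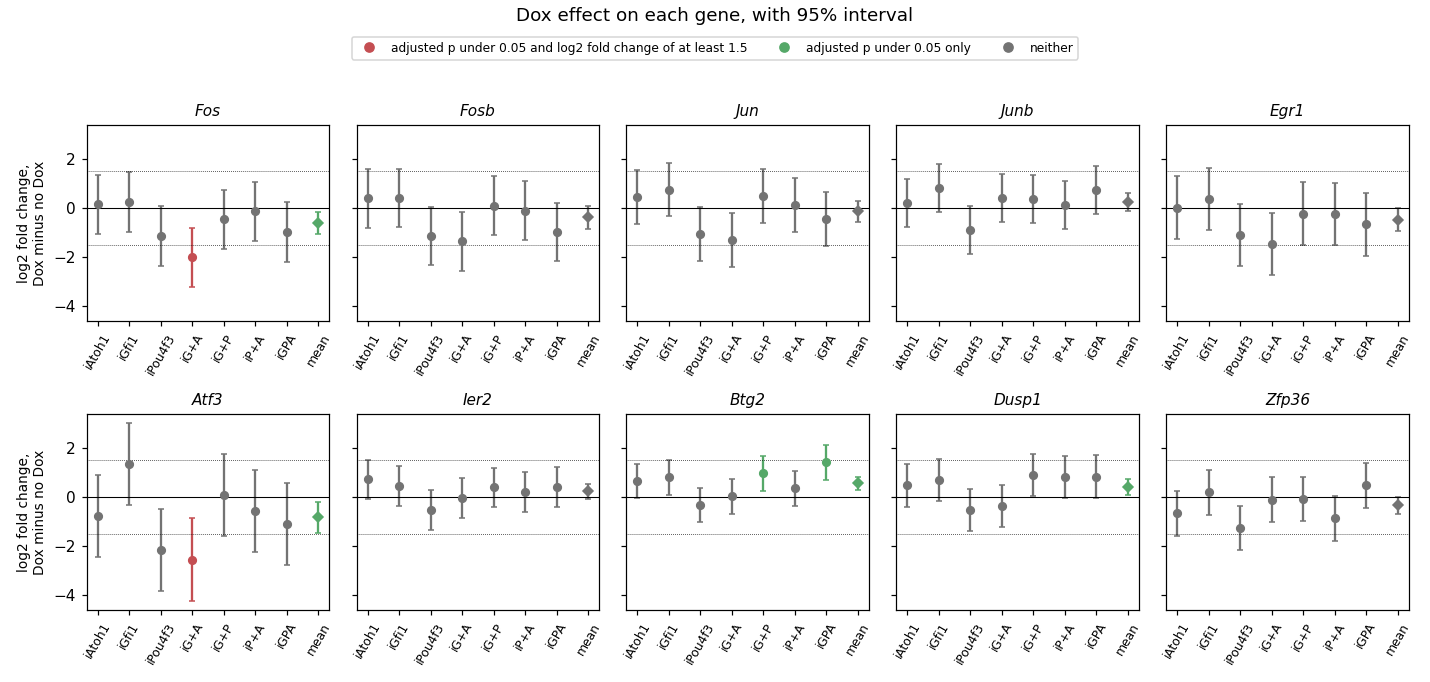
Log2 fold change of Dox against untreated for each gene in the 7 lines (circles) and over their mean (diamonds), with the 95% interval from limma, dotted lines at 1.5 in either direction. Red points are past the threshold (Fos and Atf3 in iG+A), green points have an adjusted p under 0.05 only, and most intervals span 0.

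Averaged over the 7 lines, effects lay on both sides of 0 and under 1.5. None of the 10 was past the threshold (3.33% of all genes were upward and 2.05% downward), and 4 had a limma adjusted p under 0.05 with no minimum change (60.6% of all genes, 30.4% higher and 30.2% lower), the same 4 as at an unadjusted p (64.3%). Fos was at −0.62 (95% interval −1.08 to −0.163, adjusted p = 0.0199) and Atf3 at −0.83 (−1.47 to −0.195, adjusted p = 0.0242). Btg2 was at 0.55 (0.288 to 0.822, adjusted p = 0.00102) and Dusp1 at 0.41 (0.0799 to 0.732, adjusted p = 0.0308). The Atf3 result was lost without iGfi1 untreated replicate 2 (adjusted p = 0.0541, and 0.00264 to 0.0541 over the alternatives), and the Dusp1 result without iGfi1 untreated replicate 1 (0.0676, and 0.0022 to 0.0676). In the same mean, 3 of 14 blood markers (median −0.83) and 6 of 13 fibroblast and mesenchyme markers (median −1.28) were past the threshold downward, and their part in the levels of these genes was not tested. Egr1 (−0.48), Fosb (−0.39), Zfp36 (−0.34) and Jun (−0.14) were below 0 and Junb (0.25) and Ier2 (0.22) above it. With a library left out none of these changed sign. Jun then ran from −0.26 to −0.0274, Fosb from −0.52 to −0.25, Junb from 0.14 to 0.36 and Ier2 from 0.14 to 0.31. With the replicate block 9 genes had an adjusted p under 0.05: Junb, Ier2, Btg2 and Dusp1 above 0, and Fos, Fosb, Egr1, Atf3 and Zfp36 below (32.1% of all genes higher and 32.4% lower). The intervals of the 10 means lay between −1.47 and 0.822.

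Whether the Dox effect differed among the lines was tested with an F test over the 7 effects. None of the 10 genes passed at a limma adjusted p under 0.05 (51.9% of all genes did), with Atf3 and Btg2 at an unadjusted p under 0.05 (0.0459 and 0.0291, 59.2% of all genes). With the replicate block all 10 passed (59.3% of all genes), and without both iG+P libraries numbered 1 there were 6, a setting chosen after seeing the data. The untreated levels gave 0 of 10 among lines (12.1% of all genes), with Atf3 at an unadjusted p of 0.0143 (33.2% of all genes were under 0.05). Untreated Atf3 had a mean of 366.58 ± 227.3 normalized counts in iG+P (SD, n = 2), 1238.5 ± 47.77 in iAtoh1, 1534.6 ± 1202 in iGfi1, 1698.7 ± 171.7 in iGPA, 2865.2 ± 2336 in iPou4f3, 2880.1 ± 950.6 in iP+A and 3184.1 ± 1685 in iG+A. The replicates of neighbours in this order overlapped, except those of iG+P and iAtoh1.

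The lines with Gfi1 were set against those without. No line lacks all 3 factors, so here and in the contrasts of Atoh1 and Pou4f3 below the other factors are not balanced between the sides. Zfp36 was the gene of the 10 whose Dox effect differed, higher by 1.06 with Gfi1 (standard error 0.33, 95% interval 0.366 to 1.75, limma adjusted p = 0.0171, at most 0.039 over the alternatives), where 35.8% of all genes passed. Its Dox effects were 0.18 in iGfi1, −0.11 in iG+A, −0.10 in iG+P and 0.47 in iGPA, and −0.68 in iAtoh1, −1.28 in iPou4f3 and −0.88 in iP+A. With a library left out, the effect in iGPA ran from 0.0193 to 0.93. In the 3 lines without Gfi1, both Dox libraries were below both untreated libraries, and in the 4 lines with it the treatments overlapped. With the block Junb (0.78, adjusted p = 0.00813) and Btg2 (0.58, adjusted p = 0.0398) passed as well (41.3% of all genes), and these 3 are the genes with an unadjusted p under 0.05 without it (44.5%). For the other 7 genes the differences ran from −0.42 (Fos) to 0.61 (Atf3). With Atoh1 against without, and with Pou4f3 against without, limma called 0 of 10 by adjusted or by unadjusted p (32.3% and 10% of all genes by adjusted and 41.9% and 23.4% by unadjusted p).

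The spread between replicates was wide for these genes and they shared it. Their residual SD on the log2 scale ran from 0.38 (Btg2) to 0.91 (Atf3), with a median of 0.564 against 0.188 over all genes tested, at percentiles 74.0 to 97.2. The median standard error of a Dox effect was 0.497 for the 10 genes and 0.184 over all genes. The deviations of the 28 libraries from their group means correlated between any 2 of the 10 genes by 0.72 to 0.978 (median 0.895, 45 pairs), and the levels by 0.298 to 0.952 (median 0.734). These describe libraries that share their groups and are no test. In 8 of the 14 groups all 10 genes were higher in the same replicate. In iG+P the medians were 2.51-fold untreated and 2.95-fold with Dox, and Fos differed 4.77-fold between the Dox replicates. In iGfi1 replicate 2 was the higher with and without Dox (1.77- and 2.1-fold), and in iAtoh1 the order was opposite, with replicate 2 higher untreated (1.34-fold) and replicate 1 higher with Dox (1.44-fold). The estimated depths of replicates 1 and 2 were 39.2 and 39.0 M reads in iG+P untreated, 37.4 and 35.1 M in iG+P with Dox, 39.1 and 39.1 M in iGfi1 untreated, and 40.0 and 37.7 M in iGfi1 with Dox. In iAtoh1 they were 39.8 and 48.0 M untreated, the widest gap of the 14 groups, and 42.1 and 41.2 M with Dox. The part of depth in these gaps was not tested. In iG+A the 10 genes did not share a direction: 4 were higher in replicate 2 and 6 in replicate 1 untreated (log2 ratios −1.13 to 0.55), and 5 and 5 with Dox (−0.33 to 0.21).

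**Figure D3:**
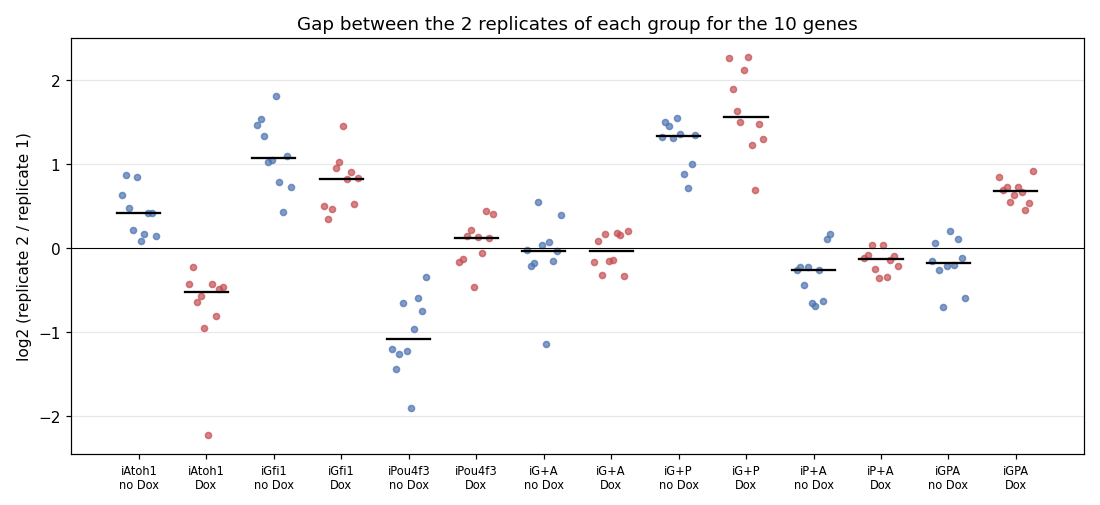
Log2 ratio of replicate 2 to replicate 1 for each of the 10 genes (points) in the 14 groups, with the median as a bar, blue for untreated EBs and red for sorted Dox cells. The 10 genes lie on the same side of 0 in 8 groups, and the medians reach 1.33 in iG+P untreated and 1.56 in iG+P Dox.

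Among the genes outside the 10 with the profile most like their mean standardized log2 level over the 28 libraries were Egr2 (Pearson r = 0.956) and Egr3 (0.938), zinc finger factors of the Egr1 family, Rhob (0.924), a small GTPase with an early response to growth factors, and Jund (0.881), a further AP-1 subunit. None of these 4 was past the threshold in any line. Egr2 ran from 46.07 to 1073 normalized counts and had a mean Dox effect of −0.03.

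A wider list of 46 other immediate early genes, all in the table and tested, had calls in both directions. In iPou4f3 cells 43 of the 46 were below 0 (median −0.65, against −0.0047 over all genes tested). Of the 46, 2 were past the threshold downward (0.606% of all genes) and 26 had an unadjusted limma p under 0.05 downward (8.15% of all genes). Their summed level in this line was 111100 and 83380 normalized counts untreated and 63430 and 66450 with Dox, so untreated replicate 1 was the higher here too. Past the threshold, iGPA cells had 6 of them upward and 4 downward, iG+A cells 3 and 5, iG+P cells 1 and 3, iP+A cells 0 and 1, iGfi1 cells 1 and 0, and iAtoh1 cells 0 and 0, with 8 upward and 4 downward by unadjusted p in iAtoh1 (17.1% and 18.4% of all genes). Over all genes the shares past the threshold were 8.65% and 5.31% in iGPA, 7.35% and 4.95% in iG+A, and 5.16% and 5.36% in iG+P. They were 4.7% and 2.58% in iP+A, 2.15% and 2.67% in iGfi1, and 2.89% and 2.52% in iAtoh1. Cyr61, a secreted matrix protein and target of YAP and serum response factor, fell in 3 lines: from 9767 and 9181 to 1126 and 1063 normalized counts in iG+A (log2 change −3.11, limma adjusted p = 0.000201), and also in iG+P (−1.98) and iGPA (−2.71). Ctgf, of the same family, fell in iG+A (−2.36), iP+A (−1.74) and iGPA (−1.95). The nuclear receptor Nr4a2 rose by 1.56 in iGfi1, 1.70 in iG+P and 1.76 in iGPA, from 466.5 and 417.6 to 1442 and 1565 normalized counts in the last. Plk3, a stress-responsive kinase, rose by 2.13 in iG+A and 3.27 in iGPA (235.9 and 187.6 to 1776 and 2328). Arc, the synaptic immediate early gene, fell in iG+A (−1.56) and iG+P (−2.42), and Fosl2, an AP-1 subunit, in iG+P (−1.88) and iGPA (−1.61). Other calls, named here after their values were seen, were falls of Maff (−1.63) and Nfkbiz (−1.69) in iPou4f3, falls of Klf6 in iG+A (−1.92) and iGPA (−1.86), a fall of Klf2 in iG+A (−1.77), and rises of Dusp6, a phosphatase of ERK, in iG+A (1.75) and iGPA (1.68), of Gadd45b in iG+A (1.501), and of Gadd45a (1.51), Dusp2 (1.53) and Sik1 (1.55) in iGPA.

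Of 20 genes that carry signals to immediate early genes (receptors, Ras and MAP kinases, serum response and CREB factors, with Srf also in the list above), at most 2 were past the threshold in a line, all downward, and the median effects lay between −0.06 and 0.05. Both genes are growth factor receptors. Erbb2 fell in the 4 lines with Gfi1, from 2517 and 2292 to 180.2 and 124.2 normalized counts in iGPA (−4.00, limma adjusted p = 3.15e-10), and likewise in iG+P (−3.65), iG+A (−3.34) and iGfi1 (−2.56). Its changes in iAtoh1, iPou4f3 and iP+A were 0.17, −0.08 and −0.36. Egfr fell from 257.4 and 247.6 to 28.52 and 28.24 in iGPA (−3.11) and from 485.2 and 398.4 to 127.1 and 188.4 in iP+A (−1.5, limma adjusted p = 0.0346).

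**Figure D4:**
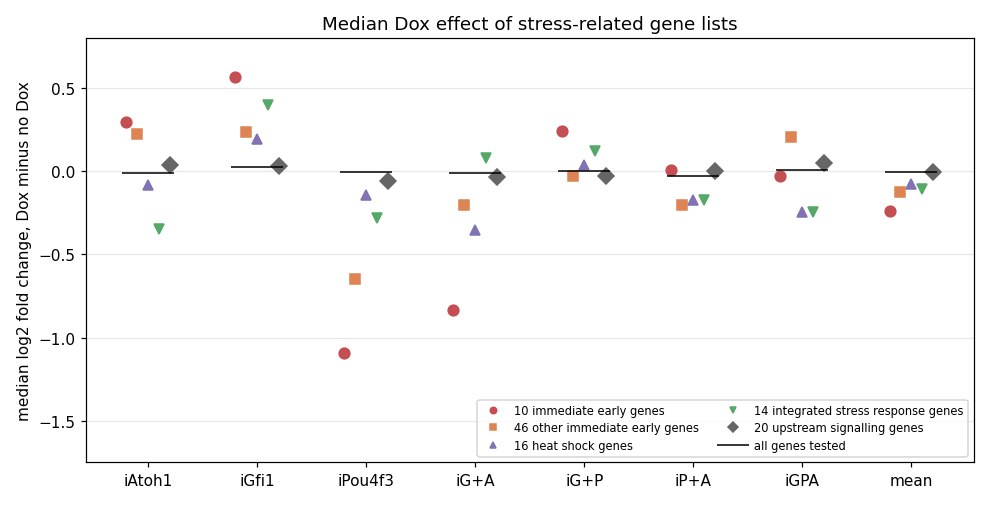
Median log2 fold change of Dox against untreated for the 10 genes and 4 other lists, by line and over the mean of 7 lines, with the median of all 16837 genes tested as a bar. The 10 genes lie lowest in the iPou4f3 line (−1.09, but −0.46 without untreated replicate 1) and in iG+A (−0.84) and highest in iGfi1 (0.56, but 0.0655 without untreated replicate 1), and the upstream genes stay between −0.06 and 0.05.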

How the data were processed

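The authors trimmed reads with cutadapt, pseudo-aligned them with Kallisto (default settings) to UCSC knownGene transcripts of mm9, summed transcripts with tximport and normalized with DESeq2 (versions not given in the sources used here). The deposited values are log2(normalized count + 1) per Entrez ID, from which normalized counts were recovered. Whole reads were not recovered: 72.4% to 79.4% of low values lay within 0.05 of whole multiples of a library's step, so no count model was run. RefSeq symbols matched 19314 of 19421 IDs. Lengths and coordinates are from GENCODE M1.

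The 16837 genes with 10 or more normalized counts in 2 or more libraries were fitted in R 4.3.3 using limma 3.58.1 with a variance trend, 14 groups and 14 residual degrees of freedom, and p-values were adjusted by Benjamini-Hochberg per contrast. Dox was compared with untreated by line and over the mean of 7 lines, Dox effects and untreated levels among lines by F tests, and Dox effects with against without each factor. The code was tested on simulated data. The 10 genes and the lists were chosen with earlier results of these data known. Genes named from each further list (at most 6) are those called in most lines, then by mean effect; those most alike are the 5 of highest r, of which 1 is not reported here. The deviations of equally numbered replicates correlated between treatments by 0.103 (iG+P), 0.127 (iGfi1), 0.152 (iGPA), 0.158 (iG+A), 0.231 (iPou4f3), 0.238 (iAtoh1) and 0.246 (iP+A) over all genes tested, so the numbers were taken to pair the libraries in a replicate block (7 residual degrees of freedom), run as an alternative; it was not established that equal numbers are the same clone. For the 10 genes the median log2 gap between replicates had opposite signs untreated and with Dox in iAtoh1 (0.417 and −0.525), iPou4f3 (−1.08 and 0.123) and iGPA (−0.176 and 0.68). It had the same sign in iGfi1, iG+A, iG+P and iP+A. P-values of the main fit measure the spread between replicates of a group, described as different clones. Those of the block fit measure the spread of Dox differences between equally numbered pairs. Other alternatives were pseudocounts of 0.5 and 5, filters of 0 or 50 normalized counts, scaling by quantiles or by the 75th percentile, limma without trend, only the groups compared, other thresholds, and each library left out in turn.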

Additional observations from a re-analysis of the deposited data

Results flagged for a closer look

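The Dox effect on Zfp36 was higher by 1.06 on the log2 scale in the 4 lines with Gfi1 than in the 3 without (standard error 0.33, limma adjusted p = 0.0171). It is listed because the test of the difference itself passed, as it did for 35.8% of all genes. Of the fold changes behind it, −0.68 in iAtoh1, −1.28 in iPou4f3 and −0.88 in iP+A all lay below those of the lines with Gfi1 (−0.11 to 0.47). Every line without Gfi1 carries Atoh1, Pou4f3 or both, so these factors are not balanced between the sides. Outliers were not looked for, since a group holds 2 libraries.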

How the results depend on the processing

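Pseudocounts, filters and fits without trend changed no count of called genes. The 2 combinations of gene and line called were 4 (of 3 genes) with no minimum change, with 1 in iG+P, 1 in iGPA and 4 over the mean of lines, and a minimum of 1 gave 1 in iGPA. The replicate block gave 1 gene in iPou4f3 (Atf3) and changed no other call past the threshold within a line. It gave 3 genes whose Dox effect differed with Gfi1 (1 without it) and all 10 that differed among lines, where quantile and 75th percentile scaling gave 1 each and the main analysis 0. Leaving out both iG+P libraries numbered 1, chosen after seeing the data, gave 6 among lines and 2 with Gfi1, and Fos (0.00418) and Egr1 (0.0568) in iG+P changed sign. Quantile normalization turned Ier2 in iG+A (0.00487), Atf3 in iG+P (−0.0462) and Fosb in iP+A (0.0778). The untreated F test could not be fitted with the block, which lies within lines. With each library left out, counts ran from 1 to 3 in the 7 lines, 1 to 2 in iG+A, 0 to 1 in iG+P and in iGPA, 0 to 5 among lines (5 without iG+P Dox replicate 1) and 1 to 3 with Gfi1. Of 1350 recomputed effects of single genes, 1301 kept direction and call, 42 changed sign, 3 lost and 4 gained a call. The cause of these changes was not tested. How far depth limits these values was not tested either.

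Leaving out a library changed the sign of these log2 effects, with their ranges: In iAtoh1, Fos −0.17 to 0.46, Fosb −0.0435 to 0.82, Junb −0.0795 to 0.49, Egr1 −0.46 to 0.49 and Atf3 −1.90 to 0.32. In iGfi1, Fos −0.48 to 0.99, Fosb −0.36 to 1.18, Egr1 −0.16 to 0.88 and Zfp36 −0.23 to 0.60. In iG+A, Ier2 −0.13 to 0.0448, Btg2 −0.0513 to 0.11 and Zfp36 −0.30 to 0.0896. In iG+P, Fos −1.59 to 0.66, Fosb −0.84 to 1.04, Jun −0.31 to 1.31, Junb −0.37 to 1.12, Egr1 −1.29 to 0.83, Atf3 −1.06 to 1.21, Ier2 −0.22 to 1.00 and Zfp36 −0.77 to 0.57. In iP+A, Fosb −0.21 to 0.00632, Jun −0.0863 to 0.35, Junb −0.01005 to 0.24 and Egr1 −0.56 to 0.0881.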

Other observations

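Genes of other stress programmes had calls in both directions. By limma adjusted p with no minimum change, 2 of 16 heat shock genes, all tested, were higher and 8 lower in iG+A, and 2 and 8 in iGPA. Of the 16, 1 rose past the threshold, Hspa4l in iG+P (231.1 and 307.7 to 826 and 833.3 normalized counts, log2 change 1.63, limma adjusted p = 2.01e-05), and 1 fell, Hspb1, a small heat shock protein, in iG+A (334.3 and 423.1 to 99.81 and 104.9, −1.87, limma adjusted p = 5.9e-05). The list's medians ran from −0.36 in iG+A to 0.19 in iGfi1.

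A list for the integrated stress response, the programme downstream of eIF2α phosphorylation, held 14 genes. Of these, Xbp1, Hspa5, Herpud1 and Vegfa are not specific to it. By limma adjusted p with no minimum change, 4 of the 14 were higher and 5 lower in iG+A, and 2 and 6 in iGPA. Over all genes tested, 21.6% were higher and 19.7% lower by that measure in iG+A, and 23.7% and 22.3% in iGPA. Trib3, Ddit4 and Chac1 passed the threshold. Trib3, a pseudokinase induced by ATF4 and CHOP, fell by 2.97 in iGPA (1785 and 1851 to 288.5 and 185.6 normalized counts, limma adjusted p = 2.57e-07), 2.11 in iAtoh1 and 1.87 in iP+A. Ddit4, an inhibitor of mTORC1, rose by 1.77 in iGPA (2758 and 2338 to 8256 and 9145) and 1.72 in iG+A. Chac1, which degrades glutathione, rose by 1.92 in iG+A (73.12 and 214.2 to 414.4 and 550.4, limma adjusted p = 0.0198). The medians ran from −0.35 in iAtoh1 to 0.40 in iGfi1, and no direction was shared by the 7 lines.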
